A study of Homo sapiens with 15 samples.

Results

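The mRNAs of 2 actins and 8 tubulins were followed through cytosolic extract (CE) of U2OS cells, a human osteosarcoma line, and through the pelleted condensates of that extract. The genes were ACTB, ACTG1, TUBA1A, TUBA1B, TUBA1C, TUBB, TUBB2A, TUBB3, TUBB4B and TUBB6, picked by symbol under a rule that describes them as short, abundant and well-translated cytoskeletal messages. They are 10 of 57500 genes in the deposited files, and 10 of 10 were among the 16612 genes that passed the filter on low counts, which asked every one of the 5 conditions for 2 or more replicates with 10 counts or more. Not every gene met the description by its counts. TUBB2A and TUBB3 had low counts in input, but sequence shared with other genes leaves the abundance of their mRNAs uncertain. By length of merged exons, TUBA1C and TUBB3 were not shorter than the median gene tested. Merged exons are not the mRNA, and the transcripts used below were 3001 (TUBA1C) and 1769 (TUBB3) bases long. Translation of these mRNAs was not measured in the libraries. Translation reactions were run for 2 h with 250 nM dsRNA, which the sensors of viral RNA recognise, with 2 µg/ml silvestrol, an inhibitor of the initiation helicase eIF4A, with 1% PEG, a crowding agent, or with no addition (mock), and their pellets were washed and sequenced after poly(A) selection. Input was the same kind of extract, not pelleted, and no incubation time is given for it. Each of these 5 conditions had 3 replicates, 15 libraries in all. The labels give the cells of all groups as wild type, whereas the study's text names the pelleted condensates after YFP-G3BP1, a tagged stress granule protein, and which cells the extract came from was not settled here. The labels do not say whether the replicates of a number came from 1 extract. An extract holds no living cells, so the values describe how RNA differed between pellet and extract in a tube. In pellets against input, division of RNA between the fractions and change of RNA over the 2 h cannot be told apart.

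Actin and tubulin are the subunits of the actin filament and the microtubule. ACTB and ACTG1 encode the β and γ cytoplasmic actins, which differ in a few residues at the amino terminus. Microtubules are built from dimers of an α- and a β-tubulin. TUBA1A, TUBA1B and TUBA1C encode α-tubulins of almost identical sequence, TUBB encodes the main β-tubulin of dividing cells, TUBB4B a β-tubulin found in most tissues, TUBB2A and TUBB3 β-tubulins best known from neurons, and TUBB6 a further β-tubulin of many non-neuronal cells. Tubulin mRNAs are known for autoregulation, in which the factor TTC5 binds the first residues of the nascent tubulin on the ribosome and the mRNA is then degraded when free tubulin is plentiful. Actin and tubulin both need the chaperonin CCT and its partner prefoldin to fold.

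The first 30 coding bases are shown because they encode the amino-terminal stretch that parts β- from γ-actin and that TTC5 reads on tubulin. They were taken from transcripts of GENCODE release 29 (GRCh38) and run 5′ to 3′ from the start codon, with the first 12 bases, which hold the first 4 codons, in capitals.
ACTB: ATGGATGATGATatcgccgcgctcgtcgtc
ACTG1: ATGGAAGAAGAGatcgccgcgctggtcatt
TUBA1A, TUBA1B and TUBA1C: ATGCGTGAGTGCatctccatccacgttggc
TUBB: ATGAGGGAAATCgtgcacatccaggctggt
TUBB2A: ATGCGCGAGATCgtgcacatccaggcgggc
TUBB3: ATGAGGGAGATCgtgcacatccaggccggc
TUBB4B: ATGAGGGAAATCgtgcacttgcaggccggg
TUBB6: ATGAGGGAGATCgtgcacatccaggcgggc
ACTG1 differed from ACTB at 6 of these 30 bases. The 3 α-tubulins differed at 0 of 30, whereas the other β-tubulins differed from TUBB at 3 (TUBB3 and TUBB6), 4 (TUBB4B) or 5 (TUBB2A) of 30.

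Over the whole coding sequence ACTB and ACTG1 were 91.2% identical, with a longest shared run of 59 bases. The α-tubulins were 95.9% to 97.2% identical in pairs, with shared runs of 164 to 326 bases, and the β-tubulins 81.0% to 87.7%, with shared runs of 26 to 185 bases. The share of 150-base windows of a transcript that also occur in a transcript of another gene was 0% for ACTB, ACTG1, TUBB4B and TUBB6. It was 12.6% for TUBA1A, 23.9% for TUBA1C, 18% for TUBB and 49.4% for TUBB2A, whose windows were shared with the neighbouring β-tubulin gene TUBB2B. It was 64.2% for TUBA1B, against its antisense gene TUBA1B-AS1, and 88.7% for TUBB3, against ENSG00000198211, an overlapping gene on the same strand. Whether reads were counted by strand, and how reads with several matches were treated, is not given in the sources used here, so the values of the 3 α-tubulins, TUBB, TUBB2A and TUBB3 are uncertain as single genes. ENSG00000198211 itself held at most 1 count in any library.

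On GRCh38, in the coordinates of the files, ACTB (ENSG00000075624) lies on the minus strand of chromosome 7 from 5527151 to 5563784, and ACTG1 (ENSG00000184009) on the minus strand of chromosome 17 from 81509971 to 81523847. TUBA1B (ENSG00000123416, 49127782 to 49131397) and TUBA1A (ENSG00000167552, 49184796 to 49189324) lie on the minus strand of chromosome 12, and TUBA1C (ENSG00000167553, 49188736 to 49274603) on the plus strand. TUBA1A and TUBA1C share 490 bases of exon on opposite strands. TUBB (ENSG00000196230) lies on the plus strand of chromosome 6 from 30720201 to 30725426, and TUBB2A (ENSG00000137267) on its minus strand from 3153669 to 3157526. TUBB3 (ENSG00000258947) lies on the plus strand of chromosome 16 from 89921392 to 89938761, TUBB4B (ENSG00000188229) on the plus strand of chromosome 9 from 137241213 to 137243707, and TUBB6 (ENSG00000176014) on the plus strand of chromosome 18 from 12307669 to 12344320. TUBB6 shares 837 bases of exon, 20.3% of its own, with AFG3L2 on the other strand, which held 1390 to 6262 counts a library, so its value is uncertain in the same way. All counts were over exons. The merged exons of the 10 genes were 1727 (TUBB2A) to 4631 (TUBA1C) bases long, against a median of 4427.5 over the genes tested, and their transcripts held 51.6% (TUBA1C) to 62.0% (TUBB3) GC, against a median of 49.6%.

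Total counts ranged from 15341973 to 46939993 and were lowest in the PEG group. The 6 markers of mesenchymal and bone cells (VIM, CDH2, FN1, RUNX2, SPARC and COL1A1) had at least 731 counts in every library. Of the 6 markers of other cell types, ALB, AFP, PTPRC and HBB had at most 19 counts in any library, CDH1 at most 50, and EPCAM 166 to 498. The share of counts on mitochondrial genes was 0.369% to 0.473% in input, 0.951% to 1.43% in the mock, dsRNA and silvestrol pellets and 0.468% to 0.716% in the PEG pellets. Replicate 1 libraries deviated together from the others of their groups. In what follows, CPM is the normalised read count, each library scaled to the same total after TMM over the 15 libraries, given as mean ± SD over 3 replicates. CPM is a share, so less of an mRNA in a pellet and more of all other RNA cannot be told apart, just as bulk RNA cannot part fewer cells from less RNA per cell.

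In input, ACTB was at 6770.1 ± 785 CPM, the 2nd highest of the genes tested, and TUBB at 2617 ± 319 CPM, the 16th. Per kilobase of exon the order was ACTB (2079.3 ± 241 CPM per kb), TUBB (779 ± 95), ACTG1 (607 ± 27.3), TUBB4B (409 ± 36.1), TUBA1B (174 ± 18.2), TUBB6 (104 ± 40.6), TUBA1C (82.7 ± 9.94), TUBA1A (71.8 ± 2.27), TUBB2A (7.72 ± 3.47) and TUBB3 (3.13 ± 1.25). Only the libraries of TUBB6 and TUBA1C overlapped among neighbours in that order. TUBB2A and TUBB3 were thus the lowest of the 10, at ranks 9627 and 9519 of the genes tested by CPM. Their levels are uncertain, since 49.4% and 88.7% of their 150-base windows are shared with other genes. TUBB2B, which shares the windows of TUBB2A, was at 162, 117 and 132 CPM in input. In PEG pellets TUBB4B rose past ACTG1 in the order, to 938 ± 87.8 CPM per kb against 777 ± 85.4, but its libraries overlapped those of both its neighbours, TUBB (1060 in the mean) and ACTG1.

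**Figure D1:**
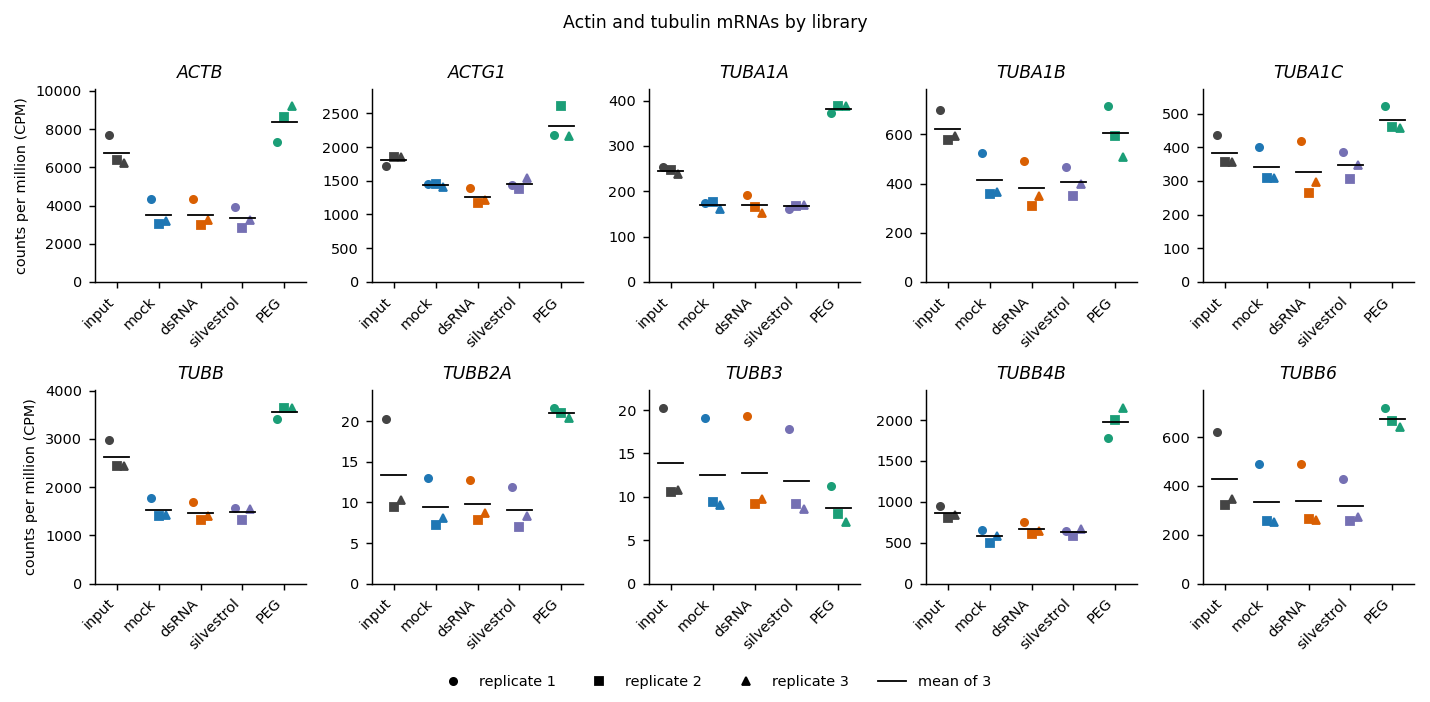
Normalised counts (CPM, linear axis from 0) of each of the 10 genes in the 15 libraries. Circles, squares and triangles are replicates 1, 2 and 3, and the bar is the mean of 3. In 9 of the 10 genes the PEG mean lies above the mock mean, and TUBB3, whose counts are uncertain, is the exception.

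All 10 mRNAs had a lower mean in mock, dsRNA and silvestrol condensates than in input, and ACTB fell most. ACTB was at 7671, 6406 and 6233 CPM in input replicates 1, 2 and 3, at 4340, 3055 and 3182 CPM in mock, at 4324, 2977 and 3217 CPM with dsRNA and at 3914, 2820 and 3258 CPM with silvestrol. Every condensate library lay below every input library, and replicate 1 was the highest of its group each time. ACTB fell by 0.91 ± 0.18 (SE) on the log2 scale in mock condensates (0.533-fold, adjusted p = 0.00980, quasi-likelihood test of edgeR, Benjamini-Hochberg adjustment over all genes, lower in 3 of 3 pairs of same-numbered replicates), and 2.74% of all genes tested had a lower log2 fold change. With dsRNA it fell by 0.91 ± 0.18 (edgeR adjusted p = 0.00662) and with silvestrol by 0.99 ± 0.18 (edgeR adjusted p = 0.00571). These 3 comparisons, and that of PEG, share the same input libraries.

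ACTG1, the other cytoplasmic actin, had smaller log2 fold changes than ACTB in all 3. It was at 1713, 1857 and 1850 CPM in input, at 1456, 1448 and 1406 CPM in mock, at 1387, 1168 and 1220 CPM with dsRNA and at 1434, 1379 and 1545 CPM with silvestrol. Its condensate libraries also lay below all input libraries. The log2 fold change passed the threshold with dsRNA (−0.48 ± 0.13, edgeR adjusted p = 0.0199) and not in mock (−0.30 ± 0.11, edgeR adjusted p = 0.0766) or with silvestrol (−0.28 ± 0.13, edgeR adjusted p = 0.128). In mock it passed with the replicate number as a block (−0.29, edgeR adjusted p = 0.00701). With a GC offset the log2 fold changes were larger and passed in all 3, at −0.55 in mock (edgeR adjusted p = 0.0142), −0.79 with dsRNA (0.00412) and −0.57 with silvestrol (0.0179).

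Of the α-tubulins, TUBA1A and TUBA1B fell in all 3 kinds of condensate and TUBA1C did not pass the test in any. TUBA1A was at 253, 246 and 238 CPM in input and at 174, 175 and 160 CPM in mock. Its log2 fold change was −0.50 ± 0.10 in mock (edgeR adjusted p = 0.0113), −0.49 ± 0.13 with dsRNA (0.0183) and −0.53 ± 0.11 with silvestrol (0.00799), and the groups did not overlap. TUBA1B was at 697, 577 and 594 CPM in input and at 522, 356 and 364 CPM in mock, again with replicate 1 highest and no overlap. It fell by 0.55 ± 0.18 in mock (edgeR adjusted p = 0.0483), by 0.66 ± 0.19 with dsRNA (0.0276) and by 0.59 ± 0.16 with silvestrol (0.0205). TUBA1C was at 436, 357 and 356 CPM in input and at 402, 309 and 309 CPM in mock, with overlapping groups, and its log2 fold changes were −0.14, −0.19 and −0.12, with edgeR adjusted p of 0.458 to 0.564.

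Of the β-tubulins, TUBB fell most in the fits without a GC offset or block. It was at 2986, 2433 and 2432 CPM in input, at 1768, 1396 and 1422 CPM in mock, at 1684, 1318 and 1404 CPM with dsRNA and at 1575, 1327 and 1556 CPM with silvestrol, with no overlap with input. Its log2 fold change was −0.74 ± 0.16 in mock (edgeR adjusted p = 0.0114), −0.79 ± 0.16 with dsRNA (0.00635) and −0.79 ± 0.16 with silvestrol (0.00748). With the GC offset TUBB was at −0.78, −0.85 and −0.84 in mock, dsRNA and silvestrol. There TUBB4B fell further in mock (−0.89), as did TUBB2A in mock (−0.79) and with silvestrol (−0.88), TUBB2A without passing the threshold.

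TUBB4B was at 950, 806 and 835 CPM in input, at 661, 496 and 586 CPM in mock, at 756, 603 and 640 CPM with dsRNA and at 643, 584 and 673 CPM with silvestrol. Its condensate libraries lay below all input libraries. It fell by 0.54 ± 0.15 in mock (edgeR adjusted p = 0.0271) and by 0.42 ± 0.14 with silvestrol (0.0428), and did not pass with dsRNA (−0.33 ± 0.14, edgeR adjusted p = 0.0941). With the replicate block the dsRNA value passed (−0.34, edgeR adjusted p = 0.0114). With the GC offset TUBB4B passed in all 3, at −0.89 in mock, −0.76 with dsRNA and −0.81 with silvestrol (edgeR adjusted p of 0.0140, 0.0125 and 0.0113).

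TUBB6, TUBB2A and TUBB3 were set apart by replicate 1. TUBB6 was at 622, 322 and 346 CPM in input and at 490, 255 and 253 CPM in mock, TUBB2A at 20.2, 9.48 and 10.3 CPM in input and at 13.0, 7.18 and 8.07 CPM in mock, and TUBB3 at 20.2, 10.5 and 10.8 CPM in input and at 19.1, 9.39 and 9.05 CPM in mock. Replicate 1 of either group was thus higher than replicates 2 and 3 of both, and the groups overlapped. The log2 fold changes in mock were −0.34 ± 0.34, −0.46 ± 0.34 and −0.10 ± 0.37, with edgeR adjusted p of 0.478, 0.334 and 0.852, although each gene was lower in 3 of 3 pairs of same-numbered replicates. With the replicate number as a block in the fit, TUBB6 (−0.34, edgeR adjusted p = 0.00131) and TUBB2A (−0.43, edgeR adjusted p = 0.00148) passed the threshold in mock and TUBB3 did not (−0.13, edgeR adjusted p = 0.284). With the GC offset and no block the values in mock were −0.71, −0.79 and −0.57, and none of the 3 passed (edgeR adjusted p of 0.223, 0.174 and 0.366).

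In all, 5 of the 10 mRNAs were depleted and 0 enriched in mock condensates, where 15.8% of all genes tested were called lower and 17.6% higher. With dsRNA 5 were depleted, against 19.6% of all genes (21.1% higher), and with silvestrol 5, against 18.1% (19.4% higher). The members were not the same in each: ACTB, TUBA1A, TUBA1B and TUBB were called in all 3, TUBB4B in mock and silvestrol, and ACTG1 with dsRNA. In mock, dsRNA and silvestrol alike, the libraries of 6 of the 10 did not overlap with input, against 50.2%, 55.1% and 53.7% of all genes. The median log2 fold change of the 10 was −0.48 in mock, −0.44 with dsRNA and −0.46 with silvestrol, beside medians over all genes of 0.0013, −0.00051 and 0.0036. With the replicate block, 8, 8 and 7 of the 10 were depleted, against 30.1%, 29.1% and 28.7% of all genes. Summed over their genes, the actin pair fell by 0.75, 0.81 and 0.81 on the log2 scale (edgeR adjusted p of 0.0107, 0.00710 and 0.00842) and the β-tubulins by 0.64, 0.62 and 0.65 (0.0278, 0.0235 and 0.0200), while the α-tubulins (−0.40, −0.47 and −0.42) did not pass, with edgeR adjusted p of 0.0800, 0.0691 and 0.0573.

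The mock count rested on single libraries. Without replicate 3 of mock, 0 of the 10 were called lower, without replicate 2 of mock 2, and without replicate 3 of input 3, where 6.12%, 7.40% and 11.1% of all genes were called lower. With replicate 1 left out of both groups, a choice made after seeing the data, 9, 8 and 9 of the 10 were lower in mock, dsRNA and silvestrol condensates, against 30.6%, 33.2% and 31.9% of all genes.

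**Figure D2:**
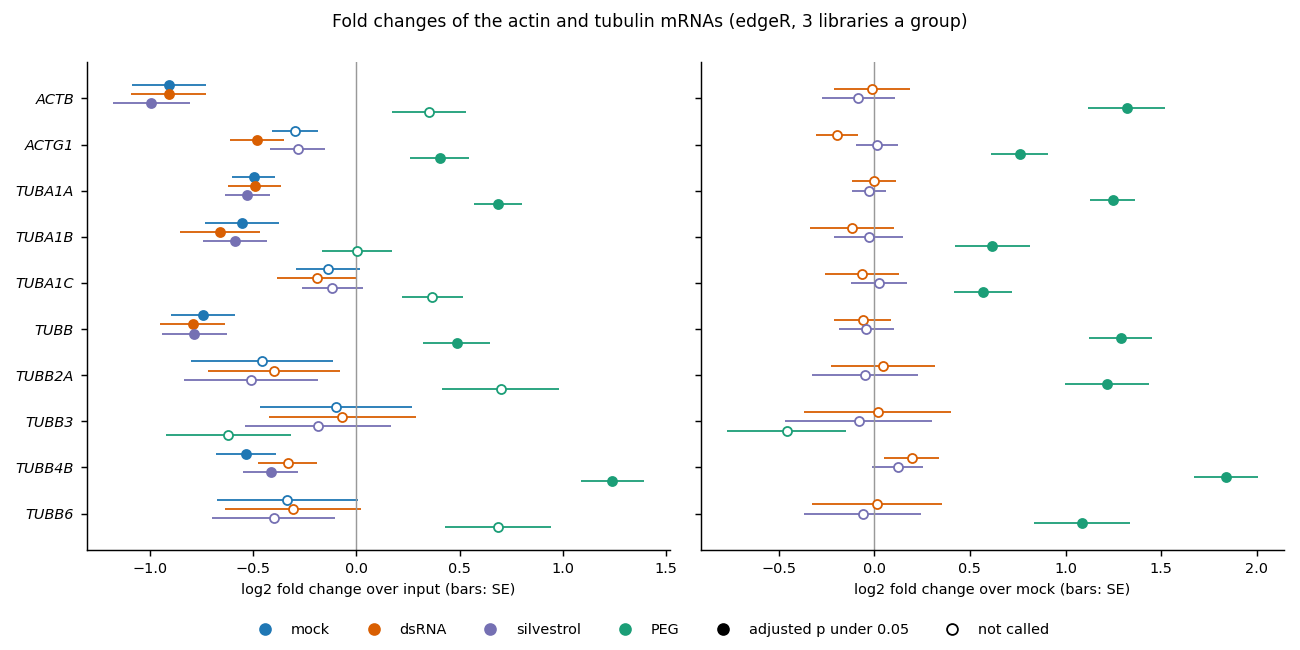
Log2 fold changes with SE of the 10 mRNAs over input (left) and over mock (right), from edgeR fits on 6 libraries each; filled points had an adjusted p under 0.05. Points of mock, dsRNA and silvestrol lie left of 0 on the input panel for all 10 genes, and PEG points lie right of 0 except for TUBB3 and TUBA1B, which is at 0.00.

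Over input, 4 of the 10 mRNAs rose in PEG pellets, and TUBB4B rose most. TUBB4B was at 1781, 2007 and 2149 CPM in PEG replicates 1, 2 and 3, against 950, 806 and 835 CPM in input. The lowest PEG library thus lay well above the highest input library. The log2 fold change over input was 1.24 ± 0.15 (2.36-fold, edgeR adjusted p = 4.5e-04, higher in 3 of 3 pairs), and it passed the threshold in 6 of 6 fits that left out 1 library, in the fit with a GC offset (0.94, edgeR adjusted p = 0.00204) and in the fit scaled by library size only (0.90, edgeR adjusted p = 4.3e-04).

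TUBA1A was the other mRNA that rose under each of these settings, from 246 ± 7.77 CPM in input to 372, 388 and 388 CPM in PEG, a log2 fold change of 0.68 ± 0.11 (edgeR adjusted p = 0.00150). TUBB, at 3403, 3630 and 3641 CPM in PEG, rose by 0.48 ± 0.16 (edgeR adjusted p = 0.0322) and ACTG1, at 2171, 2606 and 2160 CPM, by 0.40 ± 0.14 (edgeR adjusted p = 0.0416), neither overlapping with input. Neither was called with the GC offset (TUBB 0.35, edgeR adjusted p = 0.114, ACTG1 0.14, edgeR adjusted p = 0.438) or with library size only (TUBB 0.15, edgeR adjusted p = 0.330, ACTG1 0.05, edgeR adjusted p = 0.741). With the replicate block TUBB passed (edgeR adjusted p = 0.0401) and ACTG1 did not (edgeR adjusted p = 0.0531).

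ACTB did not pass the test, and its replicates went both ways. It was at 7320, 8654 and 9205 CPM in PEG, so that PEG replicate 1 lay below input replicate 1 and the other two PEG libraries above all input. The log2 fold change was 0.35 ± 0.18 (edgeR adjusted p = 0.129). TUBB6 was at 719, 666 and 640 CPM and TUBB2A at 21.6, 21.0 and 20.3 CPM. TUBB6 lay above every input library, while the PEG libraries of TUBB2A were level with input replicate 1 (20.2 CPM) and above the others. Their log2 fold changes of 0.68 ± 0.26 and 0.70 ± 0.28 missed the threshold (edgeR adjusted p = 0.0507 and 0.0666) and passed with the replicate block (0.76, edgeR adjusted p = 0.0114, and 0.79, edgeR adjusted p = 0.0157). TUBA1C, at 522, 460 and 459 CPM in PEG, also had no overlap with input and gave 0.37 ± 0.15 (edgeR adjusted p = 0.0627, and 0.0295 with the block).

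TUBA1B and TUBB3 did not follow. TUBA1B was at 714, 594 and 507 CPM in PEG against 697, 577 and 594 CPM in input, a log2 fold change of 0.00 ± 0.17 (edgeR adjusted p = 0.995), whose sign changed with the scaling (−0.33 with library size only). TUBB3 was at 11.2, 8.01 and 7.08 CPM in PEG and was lower than input in 3 of 3 pairs. Its log2 fold change of −0.62 ± 0.30 missed the threshold (edgeR adjusted p = 0.113) and passed with the block (−0.57, edgeR adjusted p = 0.0139), and the sign held under each scaling. TUBB3 shares 1584 bases of exon on the same strand with ENSG00000198211, and its transcript is 1769 bases long. Its counts may therefore leave out much of that transcript, and its value is uncertain as a single gene.

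In all, 4 of the 10 mRNAs were enriched and 0 depleted in PEG pellets over input, where 25.5% of all genes were called higher and 25.9% lower, and the libraries of 6 of 10 did not overlap, against 61.3% of all genes. Counts of genes without overlap use TMM over the 6 libraries of a comparison, on which PEG and input overlapped for TUBB2A, whereas on the CPM printed here its lowest PEG value is 20.35 and its highest input value 20.25. With the block 6 were enriched, against 28.0% of all genes, and 1 depleted, against 27.8%. The median log2 fold change was 0.44, beside −0.0094 over all genes. Scaling by library size only moved the median of all genes to −0.35 and their calls to 2337 higher and 6890 lower (4228 and 4307 with TMM), and left 2 of the 10 called higher, against 14.1% of all genes. As summed families the β-tubulins rose by 0.71 ± 0.17 (edgeR adjusted p = 0.00891), whereas the actin pair (0.36, edgeR adjusted p = 0.103) and the α-tubulins (0.27, edgeR adjusted p = 0.161) did not pass.

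Between the 2 kinds of pellet, PEG and mock, 9 of the 10 mRNAs were higher with PEG, where 31.3% of all genes were called higher and 32.2% lower, and the exception was TUBB3. The median log2 fold change was 1.15, beside −0.031 over all genes. TUBB4B was again the largest, at 1.84 ± 0.17 (3.58-fold, edgeR adjusted p = 1.44e-05), followed by ACTB at 1.32 ± 0.20 (2.91e-04), TUBB at 1.29 ± 0.16 (9.86e-05) and TUBA1A at 1.25 ± 0.12 (1.68e-05). The smallest of the 9 were TUBA1C (0.57 ± 0.15, 0.00818) and TUBA1B (0.62 ± 0.20, 0.0192). The libraries of 8 of 10 did not overlap, against 69.1% of all genes, with TUBA1B and TUBB3 overlapping. Scaling by library size only, which moved the median of all genes to −0.49 and their calls to 3118 higher and 8272 lower (5207 and 5350 with TMM), left the 9 log2 fold changes above 0 but took ACTG1 (0.29, edgeR adjusted p = 0.0726), TUBA1B (0.17, 0.466) and TUBA1C (0.11, 0.505) below the threshold. TUBB3, whose counts are uncertain because of the overlapping gene, gave −0.46 ± 0.31 (edgeR adjusted p = 0.217).

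Adding dsRNA or silvestrol to the reaction gave no called difference from mock in any of the 10 mRNAs. In either comparison 0 members were called, and 0% of all genes were called by edgeR's quasi-likelihood test without the replicate block. With the block edgeR called 25 genes higher and 441 lower with dsRNA and 2 higher and 0 lower with silvestrol, and 0 members. At an unadjusted p under 0.05 the fit without the block had 374 genes with dsRNA and 35 with silvestrol, and DESeq2 called 65 and 0 genes. The log2 fold changes over mock ran from −0.19 ± 0.11 (ACTG1) to 0.20 ± 0.14 (TUBB4B) with dsRNA and from −0.08 ± 0.19 (ACTB) to 0.12 ± 0.13 (TUBB4B) with silvestrol. ACTG1 was the 1 member whose dsRNA libraries (1387, 1168 and 1220 CPM) did not overlap with mock (1456, 1448 and 1406 CPM), against 6.69% of all genes, and it was lower in 3 of 3 pairs. With the replicate block the edgeR adjusted p of ACTG1 was 0.0861, and with the block and a GC offset 0.0151. TUBA1B and TUBB were also lower with dsRNA in 3 of 3 pairs. TUBB4B was higher in 3 of 3 (edgeR adjusted p = 0.0691 with the block and 0.226 with the block and a GC offset). With silvestrol 0 members, against 3.54% of all genes, did not overlap with mock.

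Ratios between genes of a family within a library do not depend on the scaling between libraries. ACTB over ACTG1 was 4.48, 3.45 and 3.37 in input and 2.98, 2.11 and 2.26 in mock, and 3.37, 3.32 and 4.26 in PEG. It was thus lower in every mock, dsRNA (2.55 to 3.12) and silvestrol (2.04 to 2.73) library than in any input library, while PEG overlapped with input. TUBB4B over TUBB was 0.318 to 0.343 in input, 0.356 to 0.412 in mock, 0.449 to 0.458 with dsRNA, 0.408 to 0.440 with silvestrol and 0.524 to 0.590 with PEG. The PEG libraries lay above all others and the input libraries below all others, and the dsRNA libraries lay above all mock libraries. This ratio makes no allowance for GC, which is 59.5% for TUBB4B and 52.5% for TUBB. Over input, TUBB4B and TUBB were at −0.54 and −0.74 in mock, and at −0.89 and −0.78 with the GC offset. With that offset they were at −0.76 and −0.85 with dsRNA, −0.81 and −0.84 with silvestrol, and 0.94 and 0.35 with PEG. TUBA1C over TUBA1B was 0.599 to 0.626 in input and 0.731 to 0.905 in the 12 pellet libraries, with no overlap between input and any kind of pellet. TUBA1A over TUBA1B was 0.363 to 0.427 in input and 0.521 to 0.766 with PEG, whereas mock (0.334 to 0.493) overlapped with input. TUBB3 over TUBB was 0.0043 to 0.0068 in input, 0.0064 to 0.0108 in mock and 0.0019 to 0.0033 with PEG, so that PEG lay below all input libraries. The TUBB3 counts in this ratio are uncertain because of the overlapping gene. These ratios are given as descriptions, since with 3 against 3 libraries an exact permutation test cannot give a p under 0.1. A ratio shows unequal change and not which of its genes changed.

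**Figure D3:**
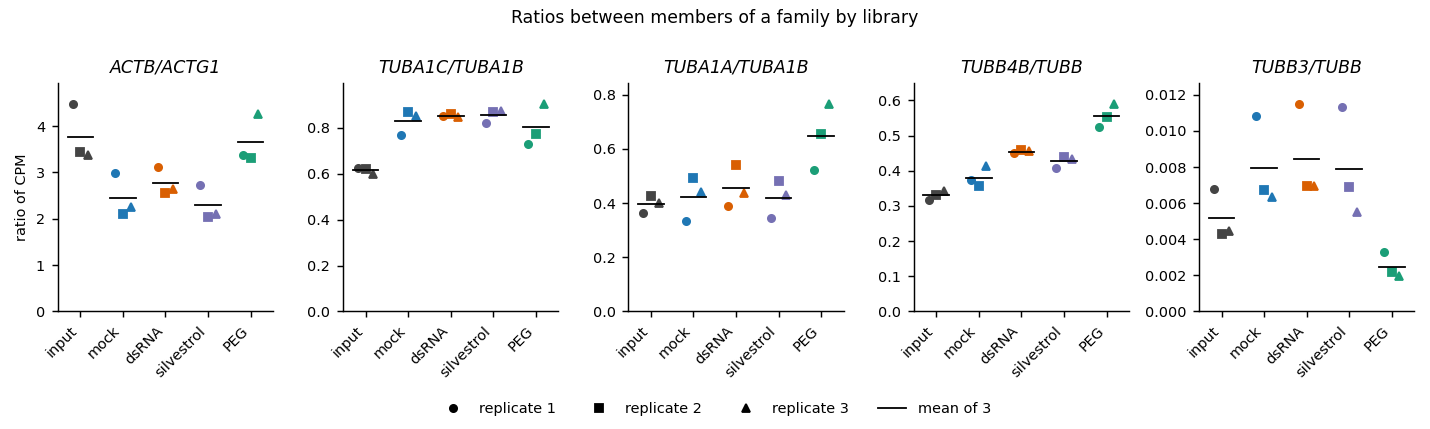
Ratios of CPM between members of a family in each of the 15 libraries (linear axes from 0, symbols as replicates 1, 2 and 3, bar the mean of 3). ACTB/ACTG1 is lower in mock, dsRNA and silvestrol than in input, TUBA1C/TUBA1B is higher in all pellets than in input, and TUBB4B/TUBB is highest in PEG, at 0.524 to 0.590.

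The 10 mRNAs together took 1.48%, 1.34% and 1.31% of all counts in the input libraries, 1.03%, 0.818% and 0.825% in mock, 1.00%, 0.773% and 0.811% with dsRNA, 0.941%, 0.781% and 0.872% with silvestrol and 1.48%, 1.51% and 1.51% with PEG. The mock, dsRNA and silvestrol libraries all lay below input, and PEG overlapped with it. The share differed from input by −0.486, −0.515, −0.513 and 0.121 percentage points in mock, dsRNA, silvestrol and PEG (two-sided exact permutation p = 0.1, 0.1, 0.1 and 0.2, n = 3 a group, where 0.1 is the smallest p possible), and PEG lay 0.608 percentage points above mock (exact permutation p = 0.1). Of the mean input share of 1.38%, 0.859 percentage points fell on the actin pair, 0.394 on the β-tubulins and 0.125 on the α-tubulins. With PEG the β-tubulins took 0.509%, above every input library, and the α-tubulins 0.120%, overlapping with input. Pseudogenes of actin and of tubulin can draw reads from the parent genes. Their counts were 0.0409% to 0.118% of those of the actin pair and 0.0358% to 0.0665% of those of the tubulin members. For actin this ratio was 0.0493% to 0.0643% in input and 0.0885% to 0.118% in the mock, dsRNA and silvestrol libraries. ACTB is in the denominator of the ratio, so the ratio rises when ACTB falls. The part of pseudogenes in the ACTB values was not tested.

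The other genes of the actin and tubulin pathways are given by list, as counts and medians beside those over all genes above. Of 14 other actin and tubulin genes tested, 1 was higher and 4 were lower in mock over input (median log2 fold change −0.36), against 17.6% and 15.8% of all genes. In PEG over input 6 were higher and 1 lower (median 0.33), against 25.5% and 25.9% of all genes. ACTR1B, an actin-related subunit of dynactin, rose in mock (0.60 ± 0.18, edgeR adjusted p = 0.0384), and TUBA3C, an α-tubulin with a near-identical copy TUBA3D and so of uncertain counts, fell (−0.72 ± 0.15, edgeR adjusted p = 0.0121). In PEG the α-tubulin TUBA4A rose (0.97 ± 0.20, edgeR adjusted p = 0.00402) and the β-tubulin TUBB4A fell (−1.41 ± 0.25, edgeR adjusted p = 0.00185), a sign opposite to that of TUBB4B.

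Of 43 genes of actin filament partners, 0 were higher and 23 lower in mock (median −0.62), against 17.6% and 15.8% of all genes. With dsRNA and silvestrol 31 and 28 were lower, against 19.6% and 18.1% of all genes. With PEG 15 were higher and 12 lower over input (median −0.064), against 25.5% and 25.9% of all genes. CAPZB, a subunit of the protein that caps filament ends, fell most in mock (−1.13 ± 0.21, edgeR adjusted p = 0.00751). In PEG the actin monomer binder TMSB10 rose from 1270 ± 92.1 to 3140 ± 546 CPM (1.34 ± 0.18, edgeR adjusted p = 5.7e-04), and ACTR2, a core subunit of the branching complex Arp2/3, fell from 654 ± 69.8 to 310 ± 38.6 CPM (−1.04 ± 0.16, edgeR adjusted p = 9.6e-04).

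Of 20 microtubule partners, 4 were higher and 4 lower in mock (median −0.0024), against 17.6% and 15.8% of all genes. In PEG 4 were higher and 10 lower (median −0.49), against 25.5% and 25.9% of all genes. CLIP1, a tracker of growing plus ends with 16293 bases of merged exon, rose in mock (1.04 ± 0.14, edgeR adjusted p = 0.00391). STMN1, which sequesters tubulin dimers, fell in mock from 666 ± 152 to 296 ± 5.12 CPM (−1.14 ± 0.17, edgeR adjusted p = 0.00447) and rose in PEG to 1060 ± 161 CPM (0.71 ± 0.20, edgeR adjusted p = 0.0180). CAMSAP2, a binder of microtubule minus ends, fell in PEG (−1.37 ± 0.29, edgeR adjusted p = 0.00425). TTC5, the reader of nascent tubulin, did not pass in any comparison, with log2 fold changes over input of −0.17, −0.17, −0.22 and 0.06 in mock, dsRNA, silvestrol and PEG and edgeR adjusted p of 0.174 to 0.725.

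Of 20 folding factors tested, 1 was higher and 13 lower in mock (median −0.55), against 17.6% and 15.8% of all genes. With dsRNA 17 were lower (19.6% of all genes) and with silvestrol 17 (18.1%). In PEG 16 were higher and 0 lower (median 0.82), against 25.5% and 25.9% of all genes. TBCD, a tubulin folding cofactor, was the 1 that rose in mock (0.62 ± 0.13, edgeR adjusted p = 0.0107), while the cofactor TBCA fell (−0.97 ± 0.18, edgeR adjusted p = 0.00754). Of the 8 CCT subunits 3 were lower in mock, 8 with dsRNA and 8 with silvestrol, and 6 were higher in PEG. Of the 6 prefoldin subunits all 6 were lower in each of mock, dsRNA and silvestrol and 5 were higher in PEG, with PFDN6 rising from 71.8 ± 4.41 to 230 ± 34.9 CPM (1.72 ± 0.14, edgeR adjusted p = 2.17e-04). TBCE was not analysed here.

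**Figure D4:**
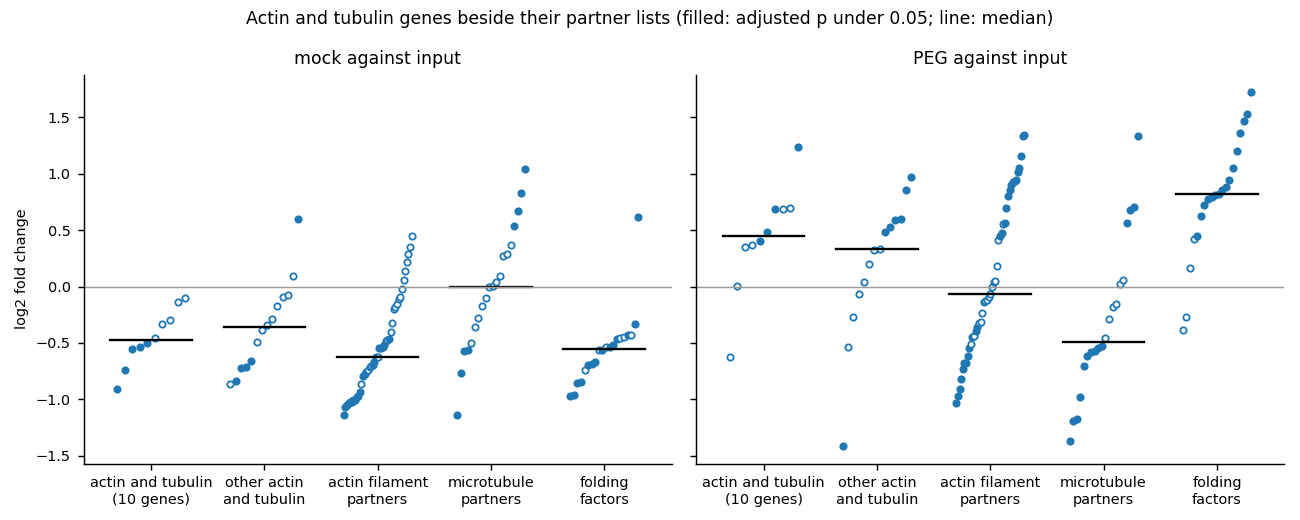
Log2 fold change of every tested gene of the 5 lists in mock over input (left) and PEG over input (right), sorted within a list, filled where the adjusted p was under 0.05, with the median as a line. The medians of the 10 actin and tubulin genes are −0.48 and 0.44; those of the folding factors are −0.55 and 0.82, and those of the microtubule partners −0.0024 and −0.49.

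Across the 15 libraries, log2 CPM of 9 members had a Pearson correlation of 0.845 (ACTG1) to 0.954 (TUBB2A) with the mean of the other 9 genes, and TUBB3, whose counts are uncertain, one of 0.05. The libraries share their 5 conditions and replicate numbers, so these are descriptions of 1 shared pattern. Among 6458 genes of at least 5 on the average log2 CPM scale, the 5 most like the mean of the 10 were AKR1B1 (0.998), TAGLN2 (0.996), AP1M2 (0.993), ANXA2 (0.993) and GPI (0.992). ANXA2 was at 2300 CPM in input, 1230 in mock and 4540 in PEG as means of 3, and AKR1B1 at 114, 76.0 and 167 CPM. TAGLN2, an actin-binding protein of the partner list, was at 539, 323 and 699 CPM.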

How the data were processed

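The files the authors deposited hold 1 count of reads for every gene and library, not normalised. The submitters' processing notes name Trimmomatic 0.36, STAR 2.5.2b, featureCounts (Subread 1.5.2) and GRCh38. Annotation release, strand setting and treatment of multiply matching reads are not given in the sources used here. Of 57500 gene identifiers 54784 had the same start and end in GENCODE 29; ACTB did not. The members and gene lists were chosen with earlier results of these data known. Named genes were the 10 members, the called genes with the largest rise and fall of each list in mock and PEG over input (average log2 CPM of at least 3), TTC5, and the 5 most alike genes.

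Each comparison was fitted on its 6 libraries with edgeR 4.0.16 (R 4.3.3; TMM, quasi-likelihood test, Benjamini-Hochberg over 16612 genes, threshold 0.05, prior count 2). DESeq2 1.42.0, other scalings and filters, a replicate block, a GC offset and left-out libraries were alternatives. GC content was taken over GENCODE 29 transcripts. Scripts were tested on simulated data. Replicates are labelled as biological. Deviations from group means correlated at 0.131 to 0.861 between libraries of the same replicate number and at −0.746 to 0.583 otherwise. Same-numbered libraries may thus be read as pairs, less clearly for replicates 2 and 3 and for PEG. Input replicate 2 correlated at 0.583 with mock replicate 2 and at 0.583 with mock replicate 3. Input replicate 3 correlated at 0.473 with silvestrol replicate 2 and at 0.495 with silvestrol replicate 3. Input replicate 3 correlated at 0.131 with PEG replicate 3 and at 0.195 with PEG replicate 2. Input replicate 2 correlated at 0.203 with PEG replicate 2 and at 0.109 with PEG replicate 3. The block stayed an alternative, and values are from the fit without it unless the block is named.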

Additional observations from a re-analysis of the deposited data

How the results depend on the processing

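The pairing of the libraries allows the replicate block, though less clearly for replicates 2 and 3 and for PEG. With the block 8 members were lower in mock, 8 with dsRNA and 7 with silvestrol. In PEG over input 6 were higher and 1 (TUBB3) lower with the block. With the block and a GC offset, 9, 10 and 9 were lower in mock, dsRNA and silvestrol (29.4%, 30.8% and 28.0% of all genes), 2 were higher (25.6%) and 1 lower (28.4%) in PEG over input, and 1 (ACTG1) was lower with dsRNA than mock (2.61%). In PEG over input, library size only gave 2 higher (14.1% of all genes) and 1 lower (41.5%), DESeq2 8 higher (26.2%), the GC offset 2 higher (23.4%) and 1 lower (26.8%), and no filter 1 lower (14.6%). In PEG over mock, library size only and no filter gave 1 lower each (49.8% and 17.5%). With libraries left out, members called lower ranged from 0 to 9 in mock, from 2 to 8 with dsRNA and from 3 to 9 with silvestrol, and in PEG over input from 2 to 8 higher and from 0 to 1 lower. The 8 higher were reached without input replicate 1 (31.3% of all genes) and without replicate 1 of both groups (34.9%), and the 2 without input replicate 2 or 3 (21.1% each) or PEG replicate 2 or 3 (17.7% and 18%). The 2 lower with dsRNA came without dsRNA replicate 2 or 3 (11.8% and 11.9%; 3 without input replicate 3, 15.2%), and the 3 lower with silvestrol without silvestrol replicate 2 or 3 (10.3% and 11.1%). The signs of the share differences held in all settings run.

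The sign of TUBA1B in PEG over input turned to −0.33 with library size only, −0.0841 with no filter, −0.0413 with all groups in 1 fit, −0.0044 with the block, −0.19 with the GC offset and −0.19 with both, and to between −0.18 and 0.12 with libraries left out. With libraries left out TUBB3 ranged from −0.54 to 0.25 in mock, from −0.50 to 0.29 with dsRNA and from −0.60 to 0.16 with silvestrol, TUBB6 from −0.72 to 0.0072 in mock and from −0.68 to 0.0456 with dsRNA, and TUBB2A from −0.64 to 0.011 with dsRNA; each was highest without input replicate 1. In the fits of summed families TUBB3 has no value of its own. The 0.71 and 1.41 in PEG over input and over mock are those of the β-tubulin sum and not a change of sign of TUBB3. The causes of the sign changes above were not tested. TUBB2A and TUBB3 had the fewest counts of the 10, and what depth adds to their spread was not tested. Leaving out replicate 1 of both groups was chosen after seeing the data.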
